A study of Mus musculus with 8 samples.

Results

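The proteasome subunit genes were taken as every gene of the count table whose symbol is Psma, Psmb, Psmc, Psmd, Psme or Psmg followed by a number, without the interferon-inducible Psmb8 and Psmb9. The rule found 44 identifiers with 43 symbols among 18022 genes, since 2 identifiers carry the symbol Psmd14 and the one with more reads was kept. They fall into 15 genes of the core particle, 17 of the regulatory cap, 3 chaperones of the cap, 4 activators and 4 assembly chaperones. The libraries hold poly(A) RNA of subcutaneous fat from 8 mice. There were 4 labelled Pkd1adipo delta/delta (KO), in which protein kinase D1 (Pkd1 in the labels, Prkd1 in the table) is deleted in adipocytes, and 4 labelled Pkd1(flox/flox) (WT). All 8 mice are C57BL/6J back-crossed 4x; the sources used here give neither the Cre driver nor age or sex, and each library is 1 mouse. The comparison asks which transcripts of fat differ once the kinase is deleted in adipocytes.

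The proteasome degrades proteins that carry ubiquitin chains. Its core particle is a barrel of stacked rings: outer rings of alpha subunits gate the entrance, and inner rings of beta subunits hold the catalytic sites. A cap with a ring of ATPases at its base and a lid that removes ubiquitin recognises, unfolds and feeds in the substrates. Other activators, the PA28 subunits and PA200, can dock in place of the cap. The subunit genes are transcribed together in most cells, in part through NFE2L1 (NRF1), a factor that in brown fat is known to raise proteasome genes when protein turnover is high.

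The promoters of the subunit genes are known for antioxidant response elements, to which NFE2L1 and NFE2L2 bind, so 3 of them are shown with the core letters of that element, TGACNNNGC on either strand, in capitals. Psmb5 and Psmb6 encode catalytic subunits with a match near the start site. Psme4 encodes the activator that was lowest in WT2, where Psmb5 and Psmb6 were highest. The sequences are RefSeq's on GRCm38.p6, each 300 bases from 250 before to 50 after the start of transcription, at chr14:54617946-54618245 on the minus strand for Psmb5, chr11:70525107-70525406 on the plus strand for Psmb6 and chr11:30771525-30771824 on the plus strand for Psme4.
Psmb5: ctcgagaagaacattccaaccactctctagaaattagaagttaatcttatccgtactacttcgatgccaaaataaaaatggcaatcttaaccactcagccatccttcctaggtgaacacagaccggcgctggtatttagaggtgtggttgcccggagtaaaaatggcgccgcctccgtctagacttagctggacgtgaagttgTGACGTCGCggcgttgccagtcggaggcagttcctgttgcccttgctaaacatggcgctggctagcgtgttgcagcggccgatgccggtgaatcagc
Psmb6: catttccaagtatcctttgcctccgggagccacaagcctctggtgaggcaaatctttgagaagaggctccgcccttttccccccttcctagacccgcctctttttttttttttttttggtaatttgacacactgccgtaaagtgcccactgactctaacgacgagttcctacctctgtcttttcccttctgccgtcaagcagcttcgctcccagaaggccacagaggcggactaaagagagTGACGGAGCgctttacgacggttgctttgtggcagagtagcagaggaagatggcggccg
Psme4: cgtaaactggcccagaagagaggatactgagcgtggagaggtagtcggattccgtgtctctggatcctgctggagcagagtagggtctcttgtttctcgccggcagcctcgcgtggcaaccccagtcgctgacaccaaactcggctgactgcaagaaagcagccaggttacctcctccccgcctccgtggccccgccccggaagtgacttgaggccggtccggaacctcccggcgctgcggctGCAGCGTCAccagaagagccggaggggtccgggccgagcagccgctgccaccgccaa

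Promoters were found for 36 of the 43 genes. The core letters occurred in 6 of the 36, or 16.7%, against 14% of all 27025 genes with a promoter in the same windows. The 6 were Psmb5, Psmb6, Psmc6, Psmd9, Psmd12 and Psme4. The looser form TGANNNNGC, which includes the first, occurred in 20 of the 36 genes, or 55.6%, against 45% of all genes. CCAAT occurred in 12, or 33.3%, against 41.1%. These shares describe the letters in windows of this length and were not tested.

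The libraries held between 2751020 and 2873457 reads in the libraries labelled KO and between 2617755 and 2816661 in those labelled WT. Adipocyte markers summed to between 20610 and 27680 CPM (read counts scaled to a common library size with TMM factors) in libraries labelled KO and between 21450 and 24030 CPM in those labelled WT, and 0 of 11 were absent. Prkd1, the targeted gene, averaged 31.4 ± 4.68 CPM in libraries labelled KO and 30.1 ± 3.19 CPM in those labelled WT (SD, n = 4 each), a log2 fold change of 0.06 ± 0.15 (SE). Counts over the whole gene and the whole tissue therefore did not check the labels, and each direction is one between libraries so labelled. The sum of 17 skeletal muscle markers lay at 3345, 2096 and 3724 CPM in KO1, KO2 and KO4, against 459.6 CPM in KO3 and 150.3 to 613.2 CPM in libraries labelled WT. KO3 alone of its label overlapped the WT values. The muscle sum thus nearly follows the label, and a fit with both as terms separates them poorly. Fold changes from that fit are given below as a check on stability, not as differences freed of muscle. In bulk tissue, fewer cells of a type and less RNA per cell cannot be told apart.

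All 43 proteasome genes passed the count filter, with 9 to 328 reads in a library. Together they took 0.215%, 0.223%, 0.211% and 0.224% of the reads in KO1 to KO4, against 0.227%, 0.237%, 0.220% and 0.226% in WT1 to WT4. The summed level was 2156, 2180, 2075 and 2245 CPM in KO1 to KO4, against 2259, 2448, 2202 and 2266 CPM in WT1 to WT4. WT2 was the highest library and KO3 the lowest, and KO4 lay above WT3, so the sums overlapped.

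No proteasome gene passed the test between the labels. In edgeR's quasi-likelihood test over 14556 genes, 0 of the 43 were higher and 0 were lower in libraries labelled KO at an adjusted p of 0.05, where 0% of all genes were called in either direction. The smallest adjusted p of a proteasome gene was 0.998. At an unadjusted p under 0.05 there was 1 of the 43, or 2.33%, against 4.48% of all genes, of which 2.71% were higher and 1.77% lower in libraries labelled KO. DESeq2 called 0 of the 43 and 0.301% of all genes, and 0 of the 43 are called in the authors' deposited table, which calls 2.42%. The data bound the size of any difference: for 34 of the 43 genes the 95% interval of the fold change lay inside 1.5-fold in either direction. Standard errors ran from 0.11 to 0.32 on the log2 scale, with a median of 0.14. The 9 genes with wider intervals were Psma3, Psmb3, Psmb5, Psmb10, Psmd10, Psme2, Psmg2, Psmg3 and Psmg4, of which Psmg3 had as few as 9 reads. The point estimates ran from -0.42 for Psmd10 to 0.27 for Psma3.

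**Figure D1:**
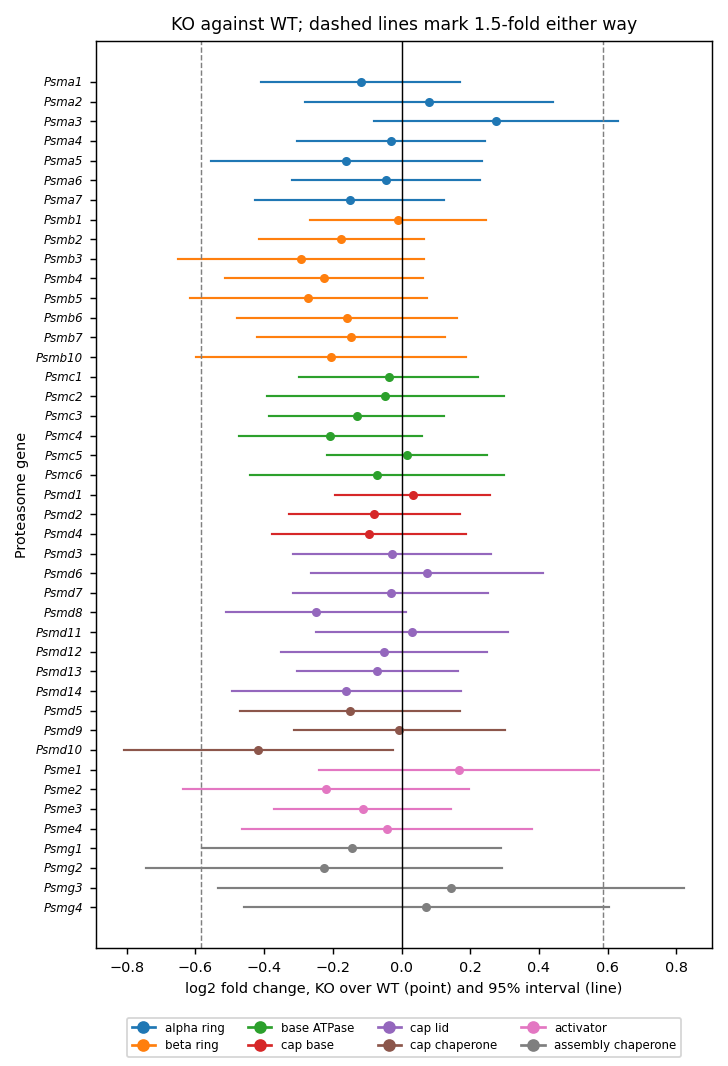
The log2 fold change of each proteasome gene (points) with its 95% interval (lines), libraries labelled KO over libraries labelled WT, 4 each, coloured by role; dashed lines mark 1.5-fold in either direction. The points lie between -0.42 and 0.27, and 42 of 43 intervals include 0.

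The small differences leaned to the negative side. Of the 43 log2 fold changes 34, or 79.1%, were below 0, against 49.9% of all 14556 genes, and their median was -0.08, against 0.00 for all genes. This is a description, since the genes share libraries and vary together within them. The count was 27 of 43 without WT2, 29 without KO3 and 39 with KO3 as the only library labelled KO. The median was -0.05 without WT2, -0.06 without KO3, -0.12 without WT3, -0.12 with skeletal muscle markers as a term of the fit and -0.16 with KO3 as the only library labelled KO. By role the medians were -0.05 for 7 alpha ring genes, -0.19 for 8 beta ring genes, -0.06 for 6 ATPases of the base, -0.08 for the other 3 base genes, -0.04 for 8 lid genes, -0.15 for 3 cap chaperones, -0.08 for 4 activators and -0.04 for 4 assembly chaperones. All 8 beta ring genes and all 3 cap chaperones were below 0.

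The libraries also differed within each label. Of the 43 genes, 15 had their highest value in WT2 and 1 their lowest, while 1 had its highest value in KO3 and 8 their lowest. Relative to each gene's mean over the 8 libraries, 35 of the 43 were above it in WT2 and 6 in KO3, where 51.7% and 50.4% of all genes tested were. The median deviation over the members was -0.04, -0.02, -0.09 and -0.01 in KO1 to KO4, against 0.02, 0.14, -0.01 and 0.01 in WT1 to WT4. WT2 also held the highest endothelial marker sum, at 1084 CPM, with 753.8 to 1034 CPM in libraries labelled KO and 832.3 to 920.2 CPM in the others labelled WT. The next highest endothelial sum, 1034 CPM, was that of KO3, where only 6 of the 43 genes were above their mean. The macrophage marker sum was highest in WT2 too, at 1219 CPM, with 856.4 to 1079 CPM in libraries labelled KO and 821.4 to 1097 CPM in the others labelled WT. The part of these cells in the proteasome values was not tested.

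**Figure D2:**
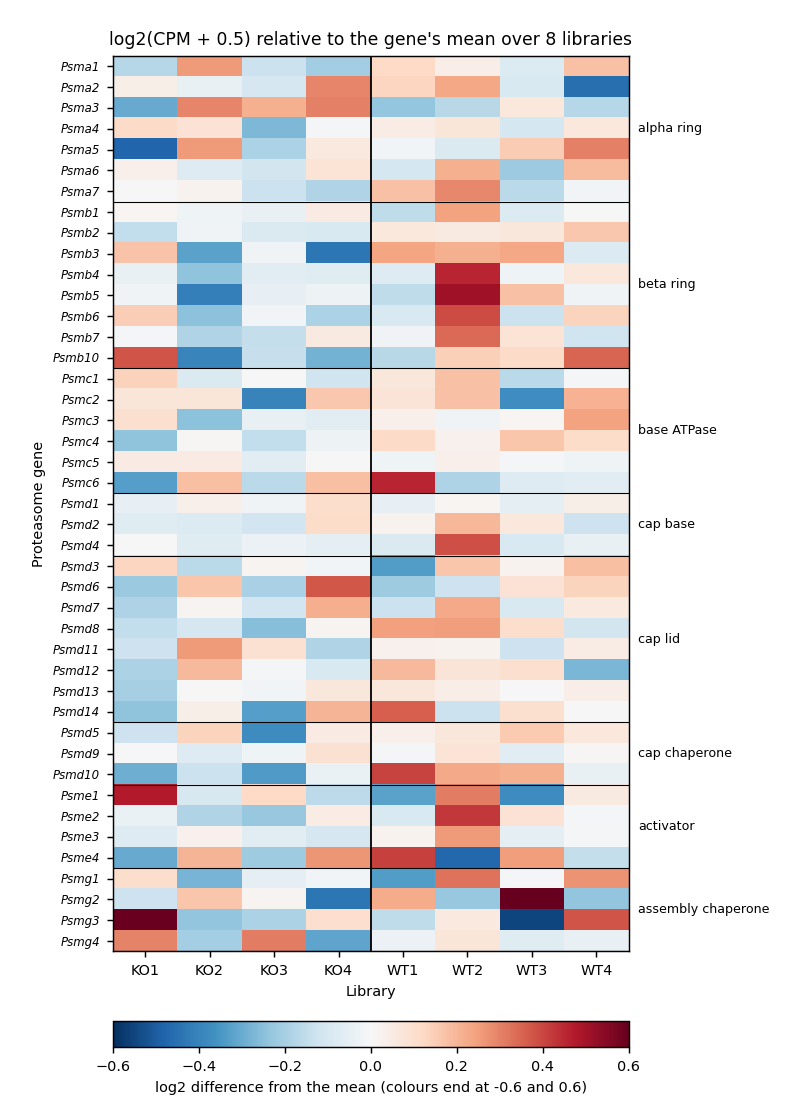
Each row is a proteasome gene and each column a library, labelled KO on the left and WT on the right; the colour is log2(CPM + 0.5) minus the gene's mean over the 8 libraries. The beta ring and several other genes are red in WT2, where 15 of 43 genes have their highest value, and Psme4 is blue there.

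The subunit groups did not move as one block. In KO2 the beta ring lay at a median of -0.24 below its genes' means, while the alpha ring of the same barrel lay at 0.09. In WT2 the beta ring lay at 0.29 and the activators at 0.28, with the alpha ring at 0.07, the ATPases at 0.03 and the lid at 0.06. In KO1 the lid lay at -0.19 and the beta ring at 0.00. KO2 held the lowest value of 5 of the 8 beta ring genes, Psmb4, Psmb5, Psmb6, Psmb7 and Psmb10, and WT2 the highest of 5, Psmb1, Psmb4, Psmb5, Psmb6 and Psmb7. The summed beta ring stood at 444, 379, 413 and 413 CPM in KO1 to KO4, against 418, 544, 445 and 449 CPM in WT1 to WT4. The groups overlapped, and the gap between WT2 and the other libraries of its label was wider than that between the label means. The summed alpha ring stood at 325, 355, 310.0 and 339 CPM in KO1 to KO4, against 343, 370, 311 and 351 CPM in WT1 to WT4, with WT2 again the highest but by less.

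**Figure D3:**
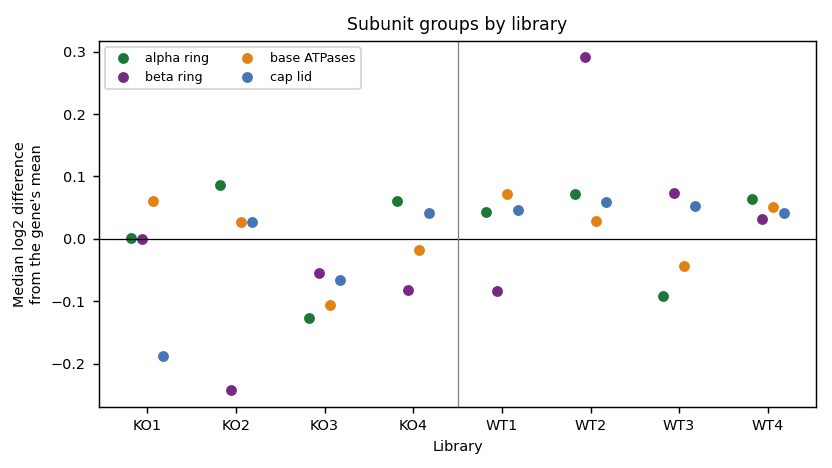
The median deviation from each gene's mean (log2 scale) for the alpha ring, the beta ring, the base ATPases and the lid in each library, KO libraries left of the line and WT libraries right. The beta ring spans -0.24 in KO2 to 0.29 in WT2, more than any of the other 3 groups.

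The 3 catalytic beta subunits had their lowest value in KO2 and their highest in WT2. Psmb5 (ENSMUSG00000022193), which carries the chymotrypsin-like site, stood at 43.8, 33.4, 43.1 and 43.5 CPM in KO1 to KO4, against 40.1, 63.6, 50.4 and 43.8 CPM in WT1 to WT4. KO2 was low and WT2 high, and the other libraries of both labels overlapped. Its log2 fold change was -0.27 ± 0.16 (SE; interval -0.62 to 0.07), and -0.13 without WT2. Psmb6, the caspase-like subunit, stood at 53.3, 40.6, 47.7 and 42.1 CPM in KO1 to KO4, against 45.2, 63.2, 44.0 and 52.9 CPM in WT1 to WT4, with the same extremes. The value was -0.16 ± 0.15, -0.05 without WT2, -0.10 without KO2, and 0.01 with muscle markers as a term. Psmb7, the trypsin-like subunit, stood at 78.5, 69.9, 71.7 and 82.1 CPM in KO1 to KO4, against 78, 100.4, 83.7 and 72.8 CPM in WT1 to WT4. KO2 and WT2 were once more the ends, and the value was -0.15 ± 0.13, -0.05 without WT2, and -0.26 with muscle markers as a term. Psmb4, a structural beta subunit, had 115 CPM in WT2 and between 70.5 and 87.3 CPM elsewhere. All of these had an adjusted p of 0.998 in the quasi-likelihood test.

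Psmb2, another non-catalytic beta subunit, was 1 of 2 proteasome genes whose groups did not overlap. It stood at 44.6, 48.7, 46.6 and 46.4 CPM in KO1 to KO4, against 51.7, 51.4, 51.8 and 55.4 CPM in WT1 to WT4. The log2 fold change was -0.18 ± 0.11 (interval -0.42 to 0.07; quasi-likelihood adjusted p = 0.998), and it ran from -0.20 to -0.15 with each library left out. The other was Psmc4, an ATPase of the base, at 31.4, 37.5, 33.5 and 36.5 CPM in KO1 to KO4, against 40.4, 37.9, 41.9 and 40.2 CPM in WT1 to WT4. KO2 and WT2 stood next to each other here, and the log2 fold change was -0.21 ± 0.12. The groups did not overlap for 2 of 43 genes, or 4.65%, against 2.93% of all genes. Psmb3, also structural, had the smallest p of the beta ring, with 29.9, 21.1, 26.1 and 19.5 CPM in KO1 to KO4, against 31.3, 30.8, 31.2 and 25.0 CPM in WT1 to WT4. Its log2 fold change was -0.29 ± 0.17, and KO1, KO3 and WT4 lay inside the range of the other label.

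Psmb10, the inducible counterpart of Psmb7 that enters the immunoproteasome under interferon, followed another order of libraries. It stood at 40.5, 23.5, 28.2 and 25.5 CPM in KO1 to KO4, against 27.7, 34.4, 33.7 and 39.8 CPM in WT1 to WT4. KO1 and WT4 were its highest libraries, and its log2 fold change was -0.21 ± 0.18. It was -0.40 without KO1, -0.11 without KO2 and -0.12 without WT4. The ratio of Psmb10 to Psmb7 in CPM was 0.39 ± 0.09 in libraries labelled KO and 0.41 ± 0.09 in those labelled WT (SD, n = 4 each; exact two-sided permutation p = 0.657, adjusted over 3 pairs 0.857). Psmb9 over Psmb6 was 0.48 ± 0.08 in libraries labelled KO and 0.52 ± 0.15 in those labelled WT (exact permutation p = 0.857, adjusted p = 0.857). Psmb8 over Psmb5 was 1.29 ± 0.20 in libraries labelled KO and 1.17 ± 0.20 in those labelled WT (exact permutation p = 0.457, adjusted p = 0.857). The pairs were chosen after the data were seen, and the smallest p that 4 against 4 libraries allow is 0.0286. Psmb8 and Psmb9 themselves were highest in WT2, at 88.9 and 43.1 CPM, where Psmb5 and Psmb6 also peaked.

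The alpha ring held the gene with the largest positive value. Psma3 stood at 20.8, 31.7, 30.01 and 31.9 CPM in KO1 to KO4, against 21.9, 22.9, 27.0 and 22.8 CPM in WT1 to WT4. KO1 lay below all libraries labelled WT and the other 3 labelled KO above them, and the log2 fold change was 0.27 ± 0.17 (interval -0.08 to 0.63). It was 0.40 without KO1. Psma6 had the highest mean CPM of the alpha genes, at 87.0 ± 5.39 CPM in libraries labelled KO and 89.9 ± 13.3 CPM in those labelled WT (SD, n = 4 each). This order is not scaled for length and leaves out reads counted to near-identical copies, described below. The other 5 alpha genes had between 15 and 82.2 CPM in a library.

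The lowest coefficients of variation of the set were those of genes in the base of the cap. Psmc5, an ATPase, stood at 58.1, 57.9, 53.7 and 55.9 CPM in KO1 to KO4, against 55.0, 57.3, 55.7 and 55.0 CPM in WT1 to WT4, with a coefficient of variation over all 8 libraries of 2.78%. Psmd1, the scaffold of the base, varied by 3.95%, with 106 ± 5.03 CPM in libraries labelled KO and 103 ± 3.26 CPM in those labelled WT. These were the lowest values of the 43. Both lay below the spread that counting alone gives at their read numbers, so they do not show steadier expression. Psmd4, a ubiquitin receptor, had the smallest p of the base genes outside the ATPases, with 66.8, 63.7, 65.3 and 64.4 CPM in KO1 to KO4, against 63.0, 87.7, 62.8 and 64.8 CPM in WT1 to WT4. WT2 alone stood apart, and the log2 fold change of -0.10 ± 0.13 turned to 0.03 without it, and was -0.02 with muscle markers as a term. Psmd8, a lid subunit, stood at 74.9, 77.4, 69.5 and 83.9 CPM in KO1 to KO4, against 98.4, 98.8, 89.4 and 76.8 CPM in WT1 to WT4. WT4 was the low library of its label and overlapped those labelled KO, and the log2 fold change was -0.25 ± 0.12 (unadjusted p = 0.0602 and adjusted p = 0.998, quasi-likelihood test), and -0.44 with muscle markers as a term. Psmd14, the lid's deubiquitinase, averaged 42.5 ± 7.38 CPM in libraries labelled KO and 47.5 ± 7.05 CPM in those labelled WT.

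Psmd10 (ENSMUSG00000031429), a chaperone of cap assembly known as gankyrin, on chromosome X, was the gene with the smallest p. It stood at 10.6, 11.9, 10.2 and 12.7 CPM in KO1 to KO4, against 17.5, 15.4, 15.3 and 12.7 CPM in WT1 to WT4. KO4 and WT4 met, and the other libraries kept apart by label. The log2 fold change was -0.42 ± 0.18 (interval -0.81 to -0.02; unadjusted p = 0.0388, adjusted p = 0.998, quasi-likelihood test) on 29 to 48 reads. It was -0.34 to -0.50 with each library left out. With muscle markers as a term it was -0.66, a value that leans on KO3, since the muscle sum nearly follows the label. The other cap chaperones had smaller values: Psmd5 averaged 25.5 ± 3.88 CPM in libraries labelled KO and 28.3 ± 1.07 CPM in those labelled WT. Psmd9 averaged 20.8 ± 1.07 CPM in libraries labelled KO and 20.9 ± 0.93 CPM in those labelled WT.

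Of the activators, Psme2 and Psme3 were highest in WT2 and Psme1 was high there, while Psme4 was lowest in that library. Psme1, the alpha subunit of PA28, stood at 45.3, 30.3, 35.3 and 29.0 CPM in KO1 to KO4, against 25.9, 40.3, 24.8 and 33.7 CPM in WT1 to WT4. KO1 and WT2 were high and the labels overlapped, with a log2 fold change of 0.17 ± 0.19. It was 0.02 without KO1, 0.09 without WT1, 0.07 without WT3, 0.31 without WT2 and 0.37 with muscle markers as a term. Psme2, its beta partner, stood at 11.3, 10.2, 9.88 and 12.0 CPM in KO1 to KO4, against 10.9, 15.8, 12.4 and 11.6 CPM in WT1 to WT4. WT2 was again high, and the log2 fold change was -0.22 ± 0.19, -0.10 without WT2, and -0.33 with muscle markers as a term. Psme3, the nuclear PA28 gamma, stood at 48.2, 51.8, 48.7 and 47.4 CPM in KO1 to KO4, against 51.7, 60.9, 49.0 and 50.7 CPM in WT1 to WT4 (-0.11 ± 0.12). WT2 was its highest library. Its value was -0.04 without WT2 and -0.06 with muscle markers as a term. Psme4, which encodes PA200, stood at 68.3, 97.5, 72.7 and 102 CPM in KO1 to KO4, against 112, 60.9, 100.4 and 76.4 CPM in WT1 to WT4. It was lowest in WT2, where most other members were high, and its log2 fold change was -0.04 ± 0.19. The sign turned to 0.10 without WT1, 0.05 without KO1, 0.03 without KO3 and 0.03 without WT3, and the value was -0.43 with muscle markers as a term.

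The 4 assembly chaperones build the core particle. Psmg2 stood at 10.2, 12.6, 11.3 and 8.14 CPM in KO1 to KO4, against 13.1, 9.48, 17.4 and 9.42 CPM in WT1 to WT4. WT3 was the highest library, and the log2 fold change was -0.23 ± 0.24. It was -0.01 without WT3, -0.12 without KO4, and -0.41 with muscle markers as a term. Psmg1, its partner in the first step of alpha ring assembly, averaged 12.0 ± 1.36 CPM in libraries labelled KO and 13.3 ± 2.75 CPM in those labelled WT. Psmg3 averaged 5.33 ± 1.65 CPM in libraries labelled KO and 4.81 ± 1.39 CPM in those labelled WT. Psmg4, which pairs with Psmg3, averaged 6.99 ± 1.68 CPM in libraries labelled KO and 6.64 ± 0.32 CPM in those labelled WT. On 9 to 24 reads, the 95% intervals of the log2 fold change reached 0.82 for Psmg3 and 0.60 for Psmg4, both past 1.5-fold.

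Per kilobase of exon, subunits that occupy the same barrel in equal number had unequal transcript levels. Psma6 had 70.5 ± 4.37 CPM per kb in libraries labelled KO and 72.8 ± 10.7 in those labelled WT. Psma3, in the same ring, had 7.34 ± 1.35 CPM per kb in libraries labelled KO and 6.07 ± 0.58 in those labelled WT. Reads matching Psma3 may also be counted to its near-identical copies, described below, and with those added it stood at 23.9 CPM per kb. Psma2, for which no such copy was found, had 8.46 ± 1.08 CPM per kb in libraries labelled KO and 8.01 ± 1.61 in those labelled WT. Psmb5 followed Psma6, at 45.6 ± 5.62 CPM per kb in libraries labelled KO and 55.0 ± 11.5 in those labelled WT, and then Psmb4 at 39.8 ± 2.42 and 46.5 ± 8.34. Psmb5, Psmb4, Psmb2, Psmc5 and Psmc3 followed each other between 50.3 and 38 CPM per kb over all libraries, and those neighbours did not differ beyond their spread. The median was 20.4 CPM per kb for the core, 19.2 for the cap, 12.6 for the activators, 8.01 for the assembly chaperones and 3.72 for the cap chaperones. The order depends on the gene model: per kilobase of the principal transcript, a scale added after the data were seen, Psma6 stayed first at 84.9 CPM per kb, Psma7 moved to the second place at 73.9, and Psmb5 to the tenth at 50.3. Psmd5, Psmd9 and Psmg3 were the lowest 3 on both scales.

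**Figure D4:**
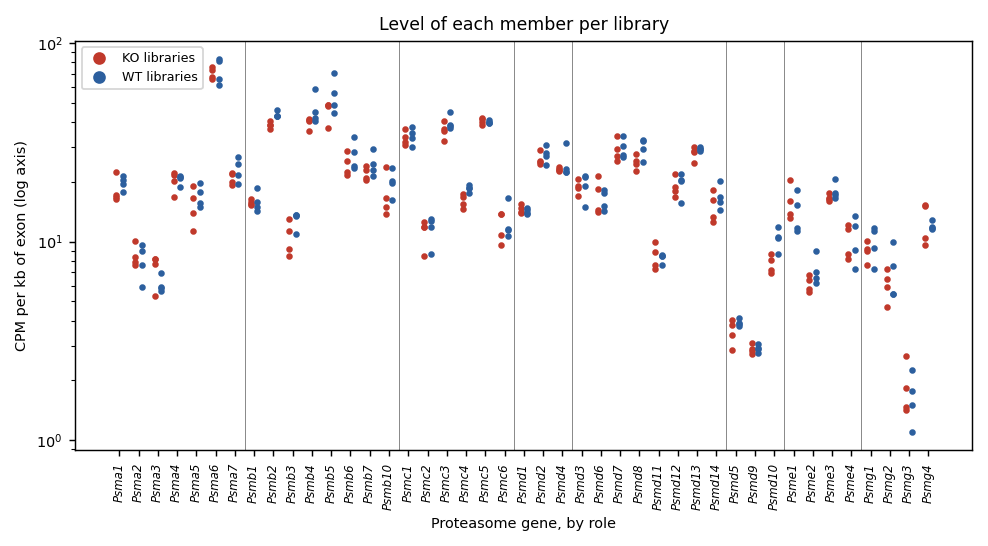
CPM per kilobase of exon on a log axis for each proteasome gene, ordered by role, with 1 point per library (red, labelled KO, left; blue, labelled WT, right). Psma6 lies highest and Psmg3 lowest, and for 41 of the 43 genes the points of the labels overlap.

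Reads were also counted to near-identical copies of some subunit genes. Apart from a nested miRNA gene in Psmb5, for 8 members the table holds other identifiers whose transcript matches the member's over at least 100 bases at 95% identity or more. Psme2 had 260 reads over the 8 libraries and Psme2b-ps, named Psme2b and called protein-coding in GENCODE M21, which matches it at 99.4% over 794 bases, had 1832, so that 87.6% of the reads of the pair were counted to the copy. Psma3 had 582 reads and its copies Gm13835 and Gm5406 had 1482, or 71.8%; Gm13835 is identical over 665 bases. Psma5 had 474 reads and its copies 1045, or 68.8%. The copies' share was 43.2% for Psmd2, 43.2% for Psma4, 38% for Psmd11, 32.7% for Psmc1 and 27.9% for Psmb3. With copies added, Psma3 stood at 23.9 CPM per kb and Psma5 at 51.9, and Psme2 at 53.6, above Psme1 at 15. Whether these reads came from the members or from the copies cannot be told from counts, so the levels of these 8 genes are uncertain. No call changed: with copies added the log2 fold change was -0.26 ± 0.12 for Psme2, 0.18 ± 0.12 for Psma3, -0.16 ± 0.12 for Psma5 and -0.26 ± 0.14 for Psmb3 (quasi-likelihood adjusted p = 0.999 for each).

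**Figure D5:**
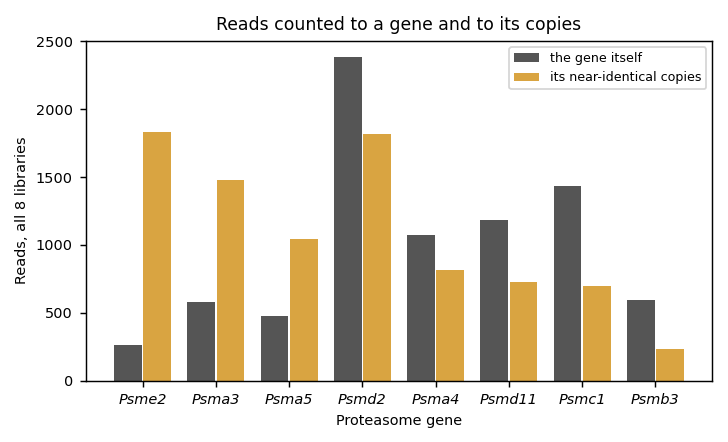
Reads summed over the 8 libraries for the 8 proteasome genes with near-identical copies in the table (grey) and for those copies (ochre). The copies hold more reads than the gene for Psme2, Psma3 and Psma5.

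The kit does not mark strand, so reads of overlapping genes on opposite strands cannot be told apart. On GENCODE M21 the longest such overlap was that of Psmd9 with Gm26745, a long noncoding RNA not analysed here, over 1849 bases, or 25.5% of the exon length of Psmd9. Exons of Psmb7 overlap those of Nek6 over 405 bases, or 11.8% of its exon length, Psmd13 those of Sirt3 over 342 bases, or 10.1%, and Psmc3 those of Slc39a13 over 215 bases, or 8.25%. An exon of Psmb5 contains Mir686 on the same strand, identical over its 109 bases. Mir686 had 45, 31, 42 and 47 reads in KO1 to KO4, against 37, 60, 50 and 44 reads in WT1 to WT4. KO2 was its lowest and WT2 its highest library, as for Psmb5, and reads of the pair cannot be told apart.

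Listed genes that work with the proteasome passed the test in neither direction, where 0% of all 14556 genes did. The counts of 0 in these lists therefore do not set them apart from other genes. Of 16 other proteasome genes tested, 0 were higher and 0 lower at an adjusted p of 0.05, with a median log2 fold change of -0.06. Psmf1, the inhibitor PI31, averaged 23.5 ± 2.38 CPM in libraries labelled KO and 28.5 ± 3.59 CPM in those labelled WT (-0.28 ± 0.15). Pomp, which matures the core, averaged 35.8 ± 2.59 CPM in libraries labelled KO and 41.7 ± 4.14 CPM in those labelled WT (-0.22 ± 0.13). Psmb8 had a log2 fold change of -0.16 ± 0.21 and Psmb9 of -0.27 ± 0.28. Of 19 genes of the NFE2L1 pathway, 0 were higher and 0 lower, with a median of 0.02. Nfe2l2 averaged 80.5 ± 15 CPM in libraries labelled KO and 67.5 ± 5.53 CPM in those labelled WT (0.26 ± 0.14), and Ufd1l, a partner of the p97 segregase, had 0.21 ± 0.14. Nfe2l1 itself averaged 514 ± 67.8 CPM in libraries labelled KO and 576 ± 26.3 CPM in those labelled WT (-0.16 ± 0.13), and is named outside the fixed rule, after its value was seen.

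Of 17 ubiquitin, E1 and E2 genes, 0 were higher and 0 lower, against 0% of all genes, with a median of -0.04. Ube2a, a ubiquitin-conjugating enzyme, had -0.22 ± 0.17. Of 13 genes of the immunoproteasome and class I loading, which include Psmb10, Psme1 and Psme2, 0 were called and the median was -0.11, with Tapbp, the tapasin of peptide loading, at -0.25 ± 0.13 and B2m at -0.24 ± 0.15. Of 4 muscle ubiquitin ligases tested, 0 were called, with a median of 0.20. Asb2, which is abundant in muscle, had 1.44 ± 0.54, and Fbxo32, known as atrogin-1, had 0.27 ± 0.23. Asb2 had 14, 14, 11 and 49 reads in KO1 to KO4, against 11, 3, 10 and 7 reads in WT1 to WT4. The muscle marker sum was highest in KO4, at 3724 CPM, and next in KO1, at 3345 CPM. The part of muscle in the Asb2 reads was not tested. Of 18 chaperonin and heat shock genes 0 were called and the median was 0.01, with Dnaja1 at 0.21 ± 0.14 and Hspa8 at 0.17 ± 0.12.

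The spread between libraries differed from gene to gene. The coefficient of variation over the 8 libraries ran from 2.78% for Psmc5 to 28.5% for Psmg3, with a median of 12.4%, against 18% for all genes tested. The proteasome genes had more reads, a median of 137 per library against 71.1 for all genes, for which counting alone gives coefficients of 8.53% and 11.9%. The biological coefficient of variation of the fit, which is set apart from counting error and drawn toward genes of like abundance, had a median of 13.9% over the proteasome genes and 16.5% over all genes. This comparison is a description of these libraries and was not tested.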

How the data were processed

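Poly(A) RNA of subcutaneous fat from 8 mice was sequenced from unstranded libraries, per the labels' protocols. Bowtie2, FastQC and edgeR, and the build mm9, stand in the submitters' processing notes without roles; neither the read counter nor its annotation is named there. The deposited files hold raw counts of reads for each Ensembl identifier and the authors' table of 1 comparison. The log2 fold changes, log2 mean CPM and p-values in that deposited table are under edgeR's usual headings, per the file headers.

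Groups and replicate numbers came from the sample titles, and columns were matched by mouse label. Members and lists were chosen with earlier results of these data known. The main test was the quasi-likelihood test of edgeR 4.0.16 in R 4.3.3 (TMM, filterByExpr, robust fit, Benjamini-Hochberg at 0.05) over 14556 genes, with genotype label in the design. Each standard error was taken as the fold change on the log2 scale divided by the square root of its F. Single ratios were compared by exact permutation. Within a label, no library was a copy of another (smallest chi-square per gene 4.45). Pairs of a KO with a WT library were not compared in this way. The main test was checked on simulated data.

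Lengths and overlaps came from GENCODE M21, and copies from BLAST+ 2.17.0 on its transcripts. Promoters are RefSeq's; for 31 of 36 genes the 30 bases after the start lay in the gene's own transcript. Named with every library were the catalytic and inducible beta genes, the activators, the genes without overlap and the smallest p of each role, and from each other list the 2 genes of smallest p. One gene that this rule names is not reported here. Alternatives were other scalings and filters, DESeq2 1.42.0, a likelihood ratio test, limma-voom (limma 3.58.1), the replicate number as a block, muscle markers as a term and each library left out; reads of copies added, the exact test with a shared dispersion and KO3 as the only KO library were added after the data were seen.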

Additional observations from a re-analysis of the deposited data

Results flagged for a closer look

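Among 86 groups of 4 libraries (43 genes in each label), 10 held a library with a gap ratio above Dixon's 95% critical value. The gap ratio is the gap to the nearest neighbour as a share of the group's range. That critical value flags about 1 in 20 independent groups. The groups here share libraries and vary together, and the share over all genes was not computed. Whether the count is an excess among proteasome genes is therefore not known.

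In libraries labelled KO, Psmb5 was low in KO2 (33.4 CPM, the others 43.1 to 43.8; gap ratio 0.936), Psmb4 was low in KO2 (70.5 CPM, the others 79.3 to 80.7; 0.867) and Psma1 was high in KO2 (66.5 CPM, the others 48.1 to 50.8; 0.831). Psma3 was low in KO1 (20.8 CPM, the others 30.01 to 31.9; 0.859) and Psmc2 low in KO3 (42.7 CPM, the others 59.5 to 63.4; 0.842). In libraries labelled WT, Psmd4 was high in WT2 (87.7 CPM, the others 62.8 to 64.8; 0.905), Psmb3 low in WT4 (25.0 CPM, the others 30.8 to 31.3; 0.927) and Psmb2 high in WT4 (55.4 CPM, the others 51.4 to 51.8; 0.888). Psma4 was low in WT3 (44.7 CPM, the others 49.6 to 50.6; 0.835) and Psmd11 low in WT3 (48.6 CPM, the others 53.7 to 54.7; 0.852).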

How the results depend on the processing

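The count of proteasome genes past the threshold was 0 under every alternative run, an adjusted p of 0.1 included. Over all genes the count was 0 in the main fit, 51 with DESeq2, 34 with the likelihood ratio test, 436 with one common dispersion, and 0 to 50 with each library left out, the 50 without KO3. The median log2 fold change of the members was -0.08, from -0.12 to -0.05 with each library left out, and -0.16 with KO3 as the only library labelled KO; the cause was not tested. The count of members below 0 was 34, and 27 (without WT2) to 36 with each library left out. Psmb6 turned to 0.00706 with muscle markers as a term. Over the libraries left out, Psme4 ran from -0.18 to 0.10 and Psmd4 from -0.141 to 0.0333 (without WT2). Over all 43 members, 8 signs turned with muscle markers as a term, 7 without KO3, 7 without WT2, 6 without KO1, 5 with KO3 as the only library labelled KO, 4 without WT4, 3 without KO2, WT1 or WT3, 3 with limma-voom, 2 without KO4 and 1 with copies added. With KO3 as the only library labelled KO, Psmb3 was at -0.18, Psmb6 at -0.11, Psmb7 at -0.22, Psmd8 at -0.39, Psme2 at -0.36, Psme4 at -0.27 and Psmg2 at -0.13. With limma-voom, Psmb7 was at -0.09, Psmb10 at -0.31, Psmd4 at -0.04 and Psme4 at -0.01. Deviations of same-numbered libraries had correlations of -0.29 to -0.14 over genes, which shows no pairing by number but cannot exclude one. The replicate block left the count of calls at 0 and the median at -0.08, with Psme4 at -0.03. Members with under 50 reads, such as Psmg3, are limited by depth.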
